A study of Mus musculus with 8 samples.

Results

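The endocrine cells of the pancreatic islet are defined by more than their hormones, and 35 such genes were followed here in RNA from macrophages sorted out of mouse islets. The 35 genes comprise 11 transcription factors, 6 genes of glucose sensing, membrane channels and incretin receptors, 10 genes of prohormone processing and the secretory granule, 3 exocytosis genes, and 5 secreted or other genes. All 35 symbols were found among the 48440 rows of the deposited table. The libraries came from CD11b and F4/80 double-positive cells of wild-type male C57BL/6J mice that were 16 weeks old. From 8 weeks of age the mice ate either standard chow (8% fat, 21% protein, 71% carbohydrate, 10.88 kJ/g) or a high-fat diet, HFD (45% fat, 20% protein, 35% carbohydrate, 19.67 kJ/g), in both cases for 8 weeks. Each diet had 4 libraries, numbered 1 to 4 for chow and 5 to 8 for HFD, and each library pooled extracts from 2 mice, so the p-values measure the spread between pools.

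As background, beta cells take up glucose, raise their ATP, close ATP-sensitive potassium channels, and release insulin from granules in which prohormone convertases have cut the hormone precursor. Transcription factors such as Pdx1, Nkx6-1 and Mafa hold beta cells in that state, Irx2 belongs to alpha cells and Hhex to delta cells. Islet macrophages lie against these cells and are known to take up material released by them. In RNA from sorted cells, fewer cells of a type and less RNA per cell cannot be told apart.

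Library totals ran from 4288661 to 6391245 counts, and a count of 0 in 1 library could hide a level of at most 0.464 to 0.702 CPM (counts scaled to library size with TMM factors), taken as 3 counts and covering counting error only. All 12 macrophage markers had counts in every library, with a summed level of 8419 to 10479 CPM under chow and 8451 to 9278 CPM under HFD. Markers of other pancreatic cells were also present. Summed acinar markers ran from 0.223 to 3268 CPM under chow and from 37.4 to 1596 CPM under HFD, with Ptf1a at 0 in every library. Stellate and fibroblast markers were at 23.8 to 132 CPM under chow and 107 to 446 CPM under HFD. Of the 10 markers, 2 to 5 were above 0 CPM per chow library and 8 to 10 per HFD library. In HFD replicate 8 Col1a1, Col3a1 and Dcn were each at only 0.199 CPM, where 3 counts would be 0.598 CPM. Duct, endothelial, and Schwann cell or neuron markers summed to at most 4.91, 13.6 and 3.59 CPM, with Krt8, Sox9 and Cftr, then Flt1, Emcn and Esam, then Tubb3, Prph and Th at 0 throughout. B cell markers summed to 4.32 to 25.1 CPM. Cd79a and Pax5 were at 0, and the highest of the list, Cd79b, reached 20.3 CPM in HFD replicate 7.

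The 35 endocrine cell genes held a small part of each library. Their counts made up 0.0258% to 0.0565% of the total in chow and 0.0537% to 0.0656% in HFD. Summed levels were 268, 559, 472 and 440 CPM under chow replicates 1 to 4 and 497, 669, 542 and 610 CPM under HFD replicates 5 to 8. The groups overlapped, because chow replicate 2 was above HFD replicates 5 and 7, and the mean was 435 ± 122 CPM under chow and 580 ± 75.3 CPM under HFD (SD, n = 4). Chow replicate 1 was the lowest library in this sum and also in the summed level of 8 hormone genes, which was 427 CPM there, 1014 to 1715 CPM in the other chow libraries and 869 to 1751 CPM under HFD.

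Levels of different genes were compared per kilobase of merged exons. On that scale the median of 10111 tested genes with an annotated length was 5.34 CPM per kb. The highest of the 35 genes were the granin gene Scg2 (15.9 CPM per kb, mean of 8 libraries), the endoplasmic reticulum oxidase gene Ero1lb (15.5), Hhex (14.4) and the carboxypeptidase gene Cpe (14.3), each above 78.7% or more of tested genes. At the other end, 12 genes had more than 50% of their counts in 1 library, and 1 gene, the beta cell factor Mafa, had none in any library. Counts were present in all 8 libraries for 11 of the 35 genes.

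**Figure D1:**
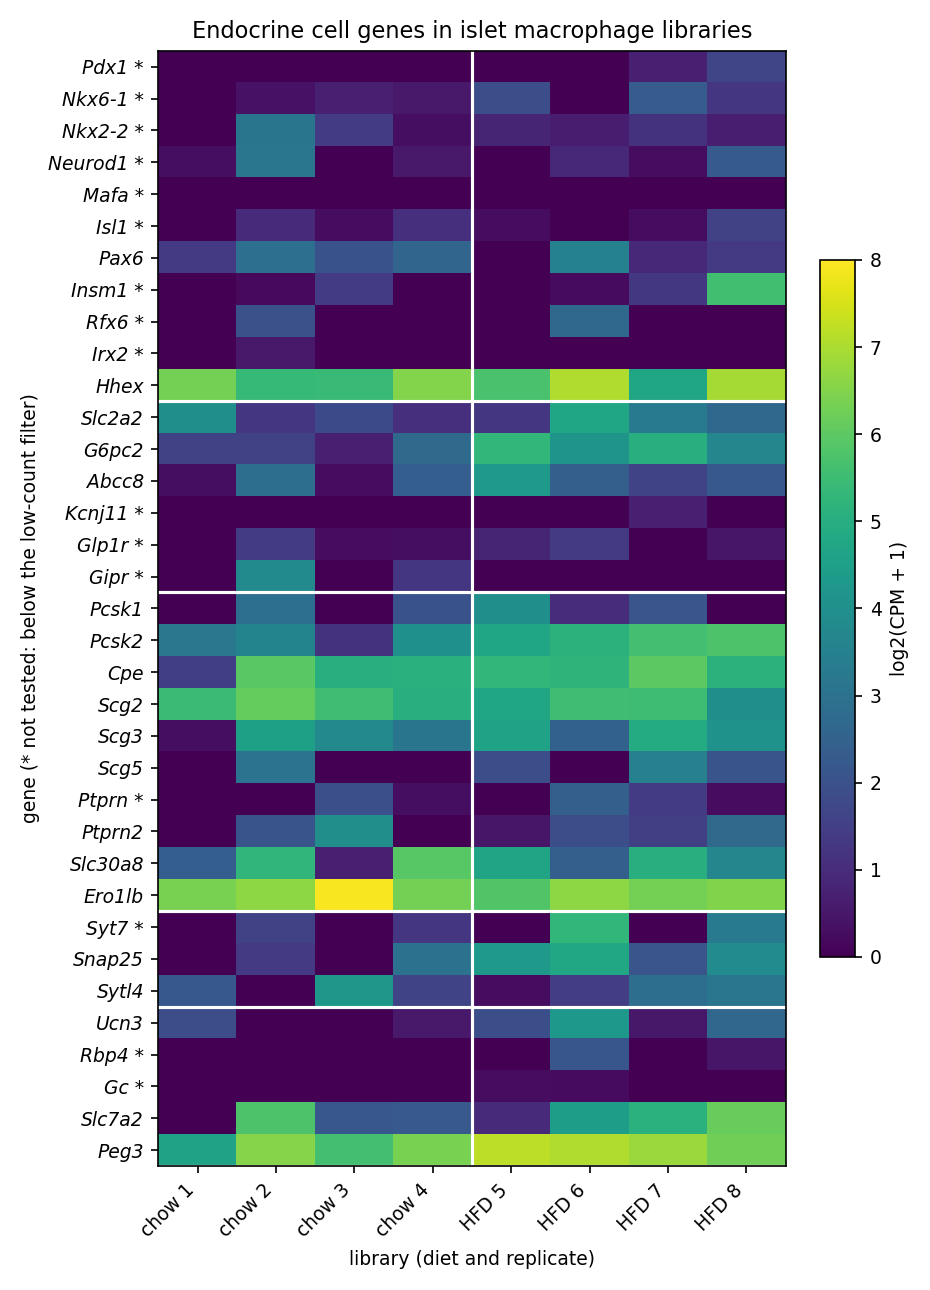
Level of each of the 35 genes (rows, grouped by role) in each library (columns, chow left and HFD right) as log2(CPM + 1); an asterisk marks the 16 genes below the low-count filter. Rows for Hhex, Scg2, Ero1lb and Peg3 are filled in every library, while most transcription factor rows are near 0 with 1 or 2 libraries standing out.

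HFD was compared with chow to find which endocrine cell transcripts differ in islet macrophage preparations after 8 weeks of the diet. The clearest differences were those of G6pc2 and Pcsk2, whose 4 HFD libraries all lay above all 4 chow libraries, but no gene passed the threshold in edgeR. Of the 35 genes, 19 passed the low-count filter and were tested, and 16 did not. The quasi-likelihood test of edgeR called 0 of 10129 genes at a Benjamini-Hochberg adjusted p under 0.05 (0% of tested genes), and so 0 of the 19. At an unadjusted p under 0.05 it gave 542 genes (5.35%), among them 3 of the 19, G6pc2, Pcsk2 and Peg3, all higher in HFD, a direction taken by 2.61% of tested genes at that p. None of the 19 was lower at that p, as 2.74% of tested genes were. DESeq2 called 28 genes (0.276%), of which G6pc2 was the only 1 among the 35, and limma-voom called 1 gene (0.00987%), not among the 35. Libraries did not overlap, and were higher in HFD, for 1.68% of tested genes and for 2 of the 19; they were separate and lower in HFD for 1.71% of tested genes and for 0 of the 19.

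Of the 19 tested genes 13 had a log2 fold change above 0, as did 48.6% of all tested genes, and 8 had one of 1 or more, as did 10.3% of all tested genes. None of the 19 had a log2 fold change of -1 or less, against 10.6% of all tested genes. Their median log2 fold change was 0.90, and that of all tested genes -0.02. These counts cannot stand for all 35, since the filter asks for about 2.05 CPM in 4 libraries. G6pc2, Scg5, Snap25 and Ucn3 met it in 3 or 4 HFD libraries and 1 chow library, and all 4 are among the 8. Pax6 passed the other way, with 3 chow libraries and 1 HFD library. The share of 8 among the 19 thus rests in part on genes that passed through their HFD levels. The shares over all tested genes were also not matched for level. Per kb, the 8 lay above between 2.33% (Abcc8) and 58.9% (G6pc2) of tested genes. Snap25, Slc2a2 and Scg5 lay above 10.7%, 10.8% and 18.2%, with SEs of 1.38, 1.21 and 1.74. As the 35 genes share a source, the 19 do not count as independent genes. Of the 16 genes not tested, 11 had a higher and 4 a lower mean in HFD, and Mafa had no counts. The same share over all genes below the filter is not given here, so these counts say nothing about the diet. Several of these means rest on 1 library. HFD replicate 8 held 93.3% of Insm1 counts, HFD replicate 6 held 90.9% of Rbp4 and 77.6% of Syt7 counts, and chow replicate 2 held 93.4% of Gipr counts.

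**Figure D2:**
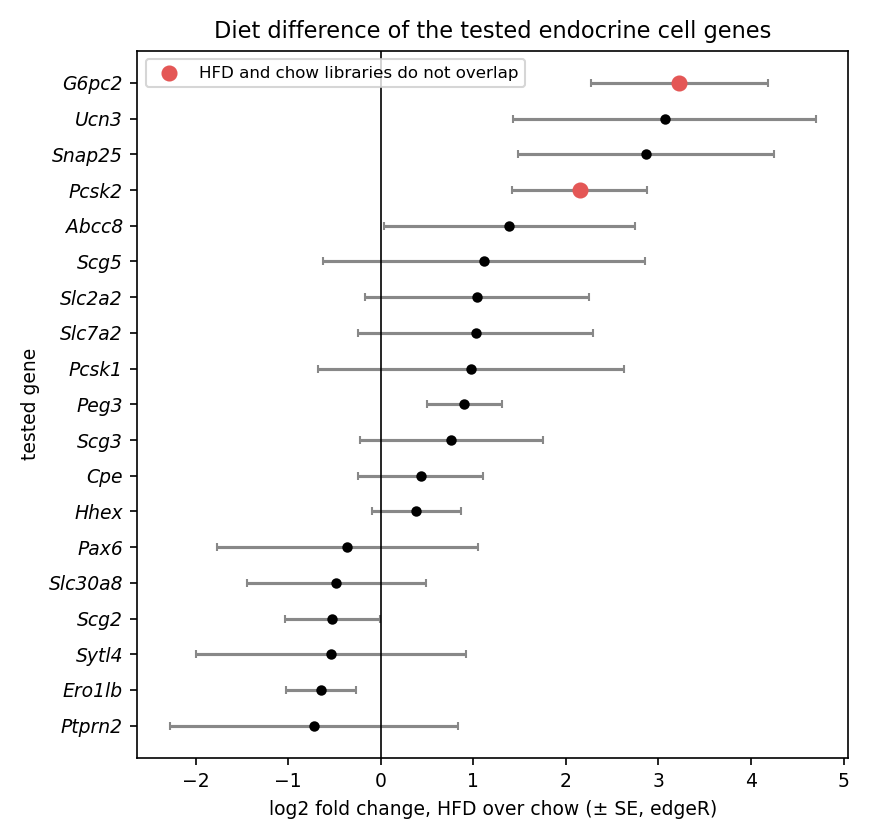
Log2 fold change of HFD over chow with its standard error (horizontal axis) for the 19 tested genes, sorted by size. Red marks G6pc2 (3.23) and Pcsk2 (2.15), whose libraries do not overlap between diets; the error bars of most others cross 0.

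G6pc2 encodes an islet glucose-6-phosphatase catalytic subunit, an enzyme that works against glucokinase and so shifts the glucose level at which beta cells respond. Its gene lies on chromosome 2, 69211073 to 69227841 (GRCm38). It was at 2.00, 2.01, 0.617 and 5.85 CPM under chow replicates 1 to 4 and at 38.4, 16.7, 31.3 and 12.1 CPM under HFD replicates 5 to 8. The lowest HFD library thus lay above the highest chow library. In counts, the chow libraries held 50 together and those of HFD 503. The means were 2.62 ± 2.25 CPM under chow and 24.7 ± 12.3 CPM under HFD (SD, n = 4), a log2 fold change of 3.23 (SE 0.96), with an edgeR adjusted p of 0.741 at an unadjusted p of 0.00323. DESeq2 gave a log2 fold change of 3.24 (SE 0.83) and an adjusted p of 0.041, and across the alternatives that p lay between 0.041 and 0.987.

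Pcsk2 encodes a prohormone convertase that frees glucagon from its precursor in alpha cells and takes part in proinsulin cleavage in beta cells. It lies on chromosome 2, 143546156 to 143816285, and overlaps the antisense genes Pcsk2os1 and Pcsk2os2, whose reads cannot be told apart without strand. Its levels were 8.24, 11.3, 1.23 and 15.2 CPM under chow replicates 1 to 4 and 24.8, 34.3, 47.4 and 53.4 CPM under HFD replicates 5 to 8. Again every HFD library was above every chow library. The means were 8.997 ± 5.91 and 40.0 ± 12.9 CPM (SD, n = 4), and the log2 fold change was 2.15 (SE 0.73, unadjusted p = 0.00844, edgeR adjusted p = 0.753). The DESeq2 adjusted p was 0.166, and across the alternatives the adjusted p lay between 0.166 and 0.997.

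Of the 8 hormone genes 7 were tested, and none had diets that did not overlap. All 7 had a log2 fold change above 0, as did 48.6% of all tested genes. Those of Ins1 (0.04, SE 0.26) and Ins2 (0.01, SE 0.26) were near 0. The largest were those of Sst, which encodes somatostatin (0.97, SE 0.45, unadjusted p = 0.0456, edgeR adjusted p = 0.912), Pyy (0.93, SE 1.56) and Iapp (0.90, SE 0.45, unadjusted p = 0.0602, edgeR adjusted p = 0.935). Sst was at 50.8, 52.0, 79.8 and 16.4 CPM under chow and 58.3, 146, 72.9 and 113 CPM under HFD, and Iapp at 15.6, 63.0, 65.4 and 39.3 CPM under chow and 88.8, 107, 92.4 and 53.97 CPM under HFD. For each, 1 or 2 HFD libraries lay below the highest chow library. Ins1 was at 226 to 587 CPM under chow and 268 to 536 CPM under HFD, and Gcg, which encodes glucagon, at 4.23 to 672 and 11.1 to 862 CPM. Per 1000 CPM of Ins1 and Ins2 together, G6pc2 was at 5.64, 2.18, 0.877 and 8.77 CPM under chow and 80.2, 20.1, 45.6 and 17.5 CPM under HFD. Per 1000 CPM of all 8 hormone genes, Pcsk2 was at 19.3, 6.59, 1.18 and 15.004 CPM under chow and 27.0, 23.8, 54.6 and 30.5 CPM under HFD. Neither ratio overlapped between the diets. As both genes were picked for CPM levels that did not overlap, this adds no separate support. Per 1000 CPM of Ins1 and Ins2 together, Pcsk2 did not overlap either, which adds no separate support for the same reason. Slc30a8, Ucn3, Pcsk1 and Slc2a2 overlapped in that ratio, as they already did in CPM. With the summed hormone level as a covariate the log2 fold changes of G6pc2 and Pcsk2 were 3.28 (SE 0.98) and 2.07 (SE 0.78). The edgeR adjusted p-values of that fit were 0.675 and 0.798. Stellate and fibroblast markers summed to 23.8, 80.0, 132 and 91.7 CPM under chow and 446, 299, 255 and 107 CPM under HFD. The pericyte gene Rgs5, with a log2 fold change of -0.52, made up most of the sum in chow replicates 2 to 4 (78.2, 127 and 84.7 CPM) and in HFD replicate 8 (96.2 CPM). Without Rgs5 the other 9 markers summed to 23.8, 1.86, 4.52 and 7.02 CPM under chow and 415, 248.7, 231 and 11.2 CPM under HFD. HFD replicate 8, lowest of its group in both sums, had the highest Pcsk2 level and the lowest G6pc2 level of that group. The part of these cells in the result was not tested.

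**Figure D3:**
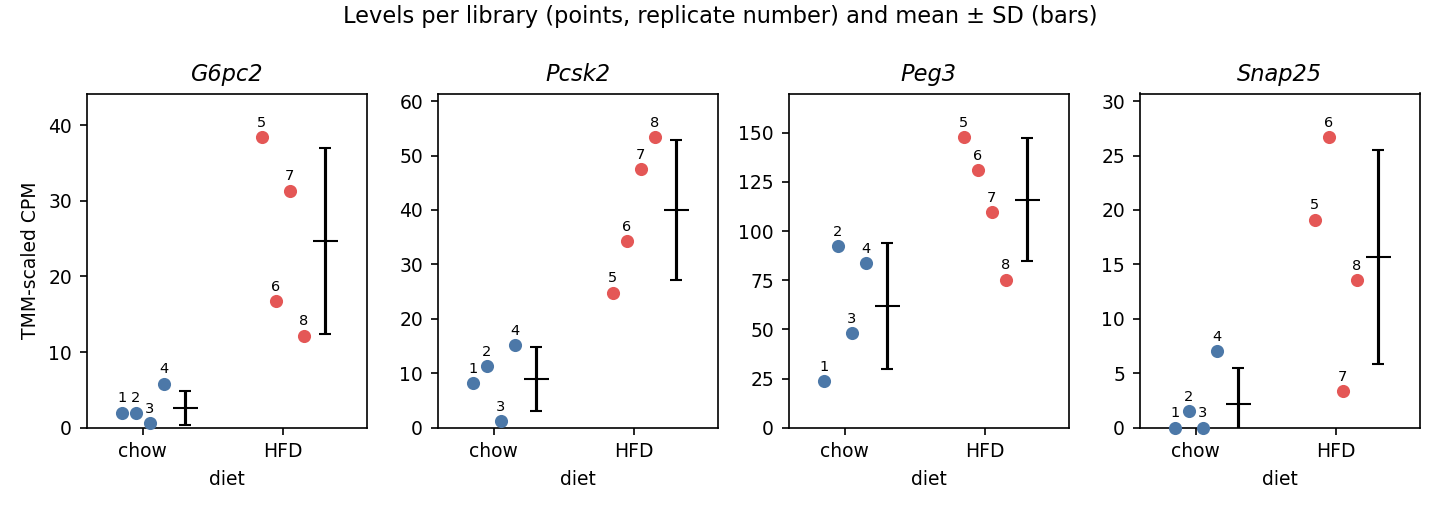
CPM of G6pc2, Pcsk2, Peg3 and Snap25 in each library (points, labelled with the replicate number), with the mean ± SD of 4 libraries per diet. Chow and HFD points are separate for G6pc2 and Pcsk2 and overlap for Peg3 and Snap25.

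The stretches just upstream of these genes are shown because G6pc2 and Pcsk2 were the only tested genes of the 35 whose libraries did not overlap. They are the 250 bases before the RefSeq start (GRCm38.p6, plus strand, 5′ to 3′), at chr2:69210823-69211072 and chr2:143545883-143546132. The window shown for G6pc2 is the one that adjoins the GENCODE start, and G6pc2 has a further RefSeq start downstream. Capitals mark the homeodomain core TAAT on either strand.

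G6pc2: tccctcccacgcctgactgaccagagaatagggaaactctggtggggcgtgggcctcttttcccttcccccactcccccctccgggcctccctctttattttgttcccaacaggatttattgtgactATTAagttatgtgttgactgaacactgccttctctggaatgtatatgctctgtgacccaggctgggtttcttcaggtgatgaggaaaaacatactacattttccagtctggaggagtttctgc
Pcsk2: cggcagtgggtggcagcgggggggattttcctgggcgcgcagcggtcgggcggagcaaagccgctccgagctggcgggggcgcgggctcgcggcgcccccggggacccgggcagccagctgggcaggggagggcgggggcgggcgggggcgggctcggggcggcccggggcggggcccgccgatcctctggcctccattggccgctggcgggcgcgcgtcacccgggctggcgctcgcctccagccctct

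The windows differed in base composition, with 50% G and C before G6pc2 and 82.4% before Pcsk2. TAAT, the core bound by homeodomain factors such as Pdx1 and Nkx6-1, was found once before G6pc2, starting 123 bases upstream, and was not found before Pcsk2. It is in 54.9% of 32851 RefSeq promoters over the same length. The E-box CAGATG and the TATA sequence TATAAA, also searched on both strands, were in neither window, against 14.4% and 12.4% of all promoters. The window before the further G6pc2 start, at chr2:69219699-69219948, held TAAT 3 times and CAGATG 2 times, with no TATAAA. Such matches are descriptions of letters, not of binding.

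Among the other genes of glucose sensing, Slc2a2, the main glucose transporter gene of rodent beta cells, was at 14.9, 1.39, 2.47 and 1.17 CPM under chow and 1.38, 25.5, 8.57 and 5.58 CPM under HFD. Its highest chow library, replicate 1, was above 3 of the 4 HFD libraries. Abcc8, which encodes the sulfonylurea receptor of the ATP-sensitive potassium channel, was at 0.223, 6.35, 0.206 and 4.21 CPM under chow and 19.1, 4.305, 2.09 and 3.58 CPM under HFD, so only HFD replicate 5 stood above chow. Their log2 fold changes were 1.04 (SE 1.21) and 1.39 (SE 1.36), with an edgeR adjusted p of 0.987 each. With 1 library left out, the value lay between 0.053 (without HFD replicate 6) and 2.60 (without chow replicate 1) for Slc2a2, and between 0.27 (without HFD replicate 5) and 2.22 (without chow replicate 2) for Abcc8. Kcnj11, which encodes the pore of the same channel, had 3 counts, all in HFD replicate 7. The incretin receptor gene Glp1r had 13 counts over the chow and 15 over the HFD libraries. Gipr, the other incretin receptor gene, had 91 counts in chow, of which 93.4% were in chow replicate 2, and none in HFD.

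Genes of prohormone processing and the granule were the most readily detected group, with 9 of 10 tested. They summed to 140, 318, 350 and 230 CPM under chow and 211, 232, 312 and 228 CPM under HFD, within the same range. Apart from Pcsk2, none had an unadjusted p under 0.05 in edgeR, and 4 of the other 8 were higher and 4 lower. Pcsk1, the convertase that starts proinsulin cleavage, was at 0, 6.66, 0 and 3.04 CPM under chow and 14.97, 1.03, 3.34 and 0 CPM under HFD. Scg5 encodes the chaperone that convertase 2 needs to mature, and it was at 0, 7.28, 0 and 0 CPM under chow and 2.76, 0, 10.2 and 3.19 CPM under HFD. Both were thus at 0 in some libraries of each diet, with log2 fold changes of 0.98 (SE 1.65) and 1.12 (SE 1.74). For Scg5 the value was 0.097 without HFD replicate 7. Without chow replicate 2 all remaining chow libraries were at 0, and the fitted 7.31, with an unadjusted p under 0.05, is no measure of size.

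Cpe, which trims the basic residues left by the convertases, was at 1.78, 61.0, 31.2 and 32.8 CPM under chow and 38.6, 35.8, 62.5 and 34.3 CPM under HFD. Chow replicate 1 was far below the other libraries. The granin gene Scg2 was at 42.5, 68.7, 46.0 and 31.1 CPM under chow and 25.8, 46.0, 44.7 and 14.7 CPM under HFD. Scg3, a granin that binds granule membranes, was at 0.223, 22.4, 12.7 and 7.72 CPM under chow and 23.4, 4.65, 29.1 and 16.3 CPM under HFD. Both granins and Cpe overlapped between diets, with log2 fold changes of 0.43 (SE 0.68) for Cpe, -0.52 (SE 0.51) for Scg2 and 0.76 (SE 0.99) for Scg3. All 3 had an edgeR adjusted p of 0.987. With 1 library left out, the values lay between 0.033 and 0.96 for Cpe, -0.73 and -0.28 for Scg2, and 0.35 and 1.41 for Scg3. The lowest for Cpe and Scg3 were without chow replicate 1 and the highest without chow replicate 2. HFD replicate 8, with the highest Pcsk2 level of all libraries, had the lowest Scg2 level.

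Slc30a8, the zinc transporter gene of insulin granules, varied more within diets than between them. It was at 4.23, 37.6, 0.617 and 59.7 CPM under chow and 24.6, 4.305, 32.2 and 12.1 CPM under HFD. Its log2 fold change was -0.48 (SE 0.97), and without chow replicate 4 it turned to 0.37 (SE 1.11). Ero1lb, which encodes an oxidase that helps proinsulin form its disulfide bonds, was at 83.3, 99.5, 241 and 80.0 CPM under chow and 55.9, 98.5, 79.4 and 88.0 CPM under HFD. Its chow mean of 126 ± 77.0 CPM rested on chow replicate 3, and the log2 fold change of -0.65 (SE 0.37, unadjusted p = 0.101) was -0.12 without that library. Ptprn and Ptprn2 encode paired granule membrane proteins known as islet autoantigens. Ptprn was not tested and had 49 counts in all, and Ptprn2 was at 0, 3.25, 14.6 and 0 CPM under chow and 0.394, 2.76, 1.88 and 5.78 CPM under HFD.

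Of the 3 exocytosis genes Snap25 and Sytl4 were tested, the first with a log2 fold change above 0 and the second below 0. Snap25, a membrane SNARE protein gene, was at 0, 1.55, 0 and 7.02 CPM under chow and 19.1, 26.7, 3.34 and 13.5 CPM under HFD. HFD replicate 7 was below chow replicate 4, and the other 3 HFD libraries were above all chow libraries. The log2 fold change was 2.87 (SE 1.38, unadjusted p = 0.0522, edgeR adjusted p = 0.935), and with any 1 library left out it lay between 2.47 and 4.80, the highest without chow replicate 4. Its unadjusted p was under 0.05 in 8 of 20 alternatives. Syt7, a calcium sensor of granule fusion, had 19 counts in chow and 267 in HFD, of which 222 were in HFD replicate 6 and 45 in HFD replicate 8. Sytl4, which docks insulin granules, was at 3.56, 0, 17.9 and 2.11 CPM under chow and 0.197, 1.72, 6.48 and 7.77 CPM under HFD. Its highest library was chow replicate 3, and its log2 fold change was -0.54 (SE 1.46).

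Transcription factors were the sparsest group. Only Hhex and Pax6 of the 11 passed the filter. Hhex, which marks delta cells and is also expressed in blood cell lineages, was at 79.1, 40.3, 41.9 and 91.3 CPM under chow and 51.6, 132, 25.3 and 121 CPM under HFD, a log2 fold change of 0.38 (SE 0.48), which was 0.059 without HFD replicate 6. Its mean level of 72.7 CPM was over 8 libraries, none of which was under 25.3 CPM. Pax6, a factor of all islet endocrine cells, was at 1.56, 6.66, 3.08 and 5.15 CPM under chow and 0, 10.3, 0.836 and 1.59 CPM under HFD, a log2 fold change of -0.36 (SE 1.41). Both overlapped between the diets, with an edgeR adjusted p of 0.987 each.

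The other 9 factors had between 0 and 252 counts over all libraries. The beta cell factor Pdx1 had 0 counts in chow and 14 in HFD, from replicates 7 and 8, and Nkx6-1 had 7 and 40. Nkx2-2 and Neurod1, factors shared by endocrine cell types, had 58 and 54 counts in chow and 16 and 25 in HFD, and 49 and 51 of these counts were in chow replicate 2. Insm1, a factor of endocrine differentiation, had 252 counts, of which 93.3% were in HFD replicate 8. Isl1 had 24 counts, Rfx6 had 50, from chow replicate 2 and HFD replicate 6 alone, and the alpha cell factor Irx2 had 3. Without Hhex the factors summed to 1.78, 26.9, 7.20 and 7.49 CPM under chow and 3.74, 17.2, 8.57 and 58.4 CPM under HFD. Their highest sums were in HFD replicate 8 and chow replicate 2, the libraries with the highest hormone sums, 1751 and 1715 CPM, and the lowest was in chow replicate 1, the library with the lowest hormone sum. In HFD replicate 8 Insm1 alone made up 46.8 CPM of that sum. Without Insm1 the sum there was 11.6 CPM, below the 17.0 CPM of HFD replicate 6 and the 26.8 CPM of chow replicate 2, so the match with the hormone order in HFD replicate 8 rested on 1 gene. This order is a description of 8 libraries, in which chow replicate 2 also had the largest total.

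**Figure D4:**
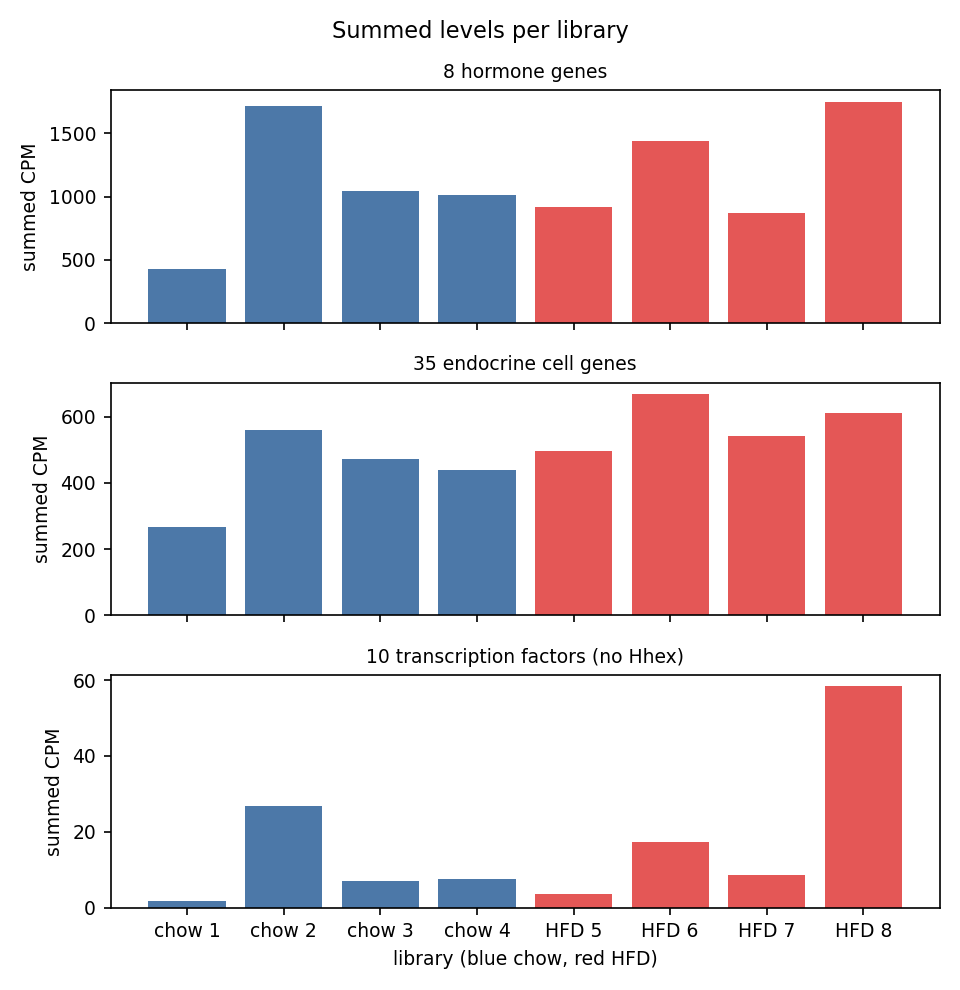
Summed CPM per library (bars; blue chow, red HFD) for 8 hormone genes, the 35 endocrine cell genes, and the transcription factors without Hhex, each panel with its own axis from 0. Chow replicate 1 is lowest in all panels; HFD replicate 8 and chow replicate 2 are highest in the top and bottom panels.

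Peg3, an imprinted gene expressed from the paternal allele (chromosome 7, 6703892 to 6730431), was the third gene with an unadjusted p under 0.05. It was at 23.6, 92.4, 48.1 and 83.8 CPM under chow and 148, 131, 110 and 75.3 CPM under HFD. HFD replicate 8 lay below chow replicates 2 and 4, and the other HFD libraries lay above all chow libraries. The means were 62.0 ± 32.0 and 116 ± 31.2 CPM (SD, n = 4), and the log2 fold change was 0.90 (SE 0.41, unadjusted p = 0.0383, edgeR adjusted p = 0.893), with adjusted p-values of 0.428 to 0.998 over the alternatives. With 1 library left out, its unadjusted p was 0.05 or more in 5 of 8 fits, those without chow replicate 1 or 3 or HFD replicate 5, 6 or 7. Within HFD the order of Peg3 was that of the stellate and fibroblast sum, with or without Rgs5. Within chow it was not: chow replicate 2 had the highest Peg3 level and the second-lowest sum, and chow replicate 1, lowest in Peg3, was lowest in the sum with Rgs5 and highest without it. The part of those cells in the Peg3 difference was not tested.

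Ucn3, a peptide gene of mature beta cells whose product acts on delta cells, was at 2.67, 0, 0 and 0.468 CPM under chow and 2.76, 18.3, 0.418 and 5.18 CPM under HFD. HFD replicate 7 lay below 2 chow libraries, and HFD replicate 6 held 65.4% of all Ucn3 counts. The log2 fold change was 3.07 (SE 1.63, unadjusted p = 0.0759, edgeR adjusted p = 0.956). With 1 library left out it lay between 1.81, without HFD replicate 6, and 5.32, without chow replicate 1, where the unadjusted p was under 0.05. The chow libraries left in that fit held only 2 Ucn3 counts, in replicate 4, so 5.32 is no measure of size. The unadjusted p of Ucn3 was under 0.05 in 3 of 20 alternatives, the others being the hormone and acinar covariates. Slc7a2, a cationic amino acid transporter gene enriched in alpha cells, was at 0, 53.9, 3.49 and 3.74 CPM under chow and 0.985, 20.8, 33.4 and 69.9 CPM under HFD. Its highest levels were in HFD replicate 8 and chow replicate 2, which also had the highest Gcg levels, 862 and 672 CPM. Its log2 fold change of 1.03 was 0.26 without HFD replicate 8 and 3.68, with an unadjusted p under 0.05, without chow replicate 2. HFD replicate 7, in contrast, had 33.4 CPM of Slc7a2 with 11.1 CPM of Gcg. Rbp4, the retinol-binding protein gene, had 22 counts and the vitamin D-binding protein gene Gc had 2, all in HFD.

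Exons of Nkx2-2, Neurod1, Ptprn, Syt7 and Slc7a2 overlap those of another annotated gene, so their counts are uncertain. The partner gene is on the opposite strand in each case, and Neurod1 also overlaps Cerkl on its own strand, where strand would not separate the reads.

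A wider set of 78 endocrine genes, made up of the hormones and of other granule, transcription factor, channel and exocytosis genes, gave no call either. In HFD 16 of the 28 genes tested in it had a log2 fold change above 0, against 48.6% of all tested genes, and 12 one below 0, the median being 0.05. An unadjusted p under 0.05 in edgeR was given to 2 of the 28, against 5.35% of all tested genes, and to 0 without chow replicate 1 or without HFD replicate 6. These were Sst, at 49.7 ± 26.0 CPM under chow and 97.4 ± 39.5 CPM under HFD, and Prox1, a homeobox factor gene, at 1.73 ± 1.23 and 11.4 ± 8.35 CPM (SD, n = 4), with edgeR adjusted p-values of 0.912 and 0.893. For the hormone genes the log2 fold change was 0.04 (SE 0.26) for Ins1, 0.01 (SE 0.26) for Ins2 and 0.40 (SE 1.49) for Gcg. Ins1 and Ins2 are similar in sequence, so the division of reads between them may be uncertain, which was not measured. The transcription factor genes Pax4 and Pou3f4 were at 0 in every library.

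The remaining genes of high level in that set were spread in both directions. The calcium channel gene Cacna1d had a log2 fold change of -0.21 (SE 0.43), the vesicle SNARE gene Vamp2 one of -0.19 (SE 0.60) and the ciliary factor gene Rfx3 one of -0.39 (SE 0.59). Chgb, a granin gene, was at 13.1 ± 10.9 CPM under chow and 34.9 ± 33.9 CPM under HFD (SD, n = 4). HFD replicate 6 held 85.2 CPM of Chgb, and the other 3 HFD libraries had a mean of 18.1 ± 5.98 CPM (SD, n = 3). The peptide-amidating enzyme gene Pam was at 16.3 ± 11.6 and 26.4 ± 13.7 CPM (SD, n = 4). None of these 5 genes had an unadjusted p under 0.05 in edgeR.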

How the data were processed

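RNA from sorted islet macrophages, 500 pg per library, was amplified with the Ovation RNA-Seq System V2, per the labels' protocols. Reads were handled with FastQC, Trim Galore and STAR on GRCm38, per the submitters' processing notes. Tool versions, the counter and its annotation are not given in the sources used. The authors deposited expected counts per gene without scaling, and 7.66% to 8.32% of the values above 0 per library were not whole. They were rounded before testing.

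Counts were tested with edgeR (version 4.0.16) in R (version 4.3.3): TMM scaling, filterByExpr, a robust quasi-likelihood fit with diet as the only term, Benjamini-Hochberg adjustment over all genes at 0.05, two-sided. The scaling and the fit were also run on simulated counts, and how many simulated differences they recovered is not given here. Alternatives were RLE, upper quartile and no scaling, library sizes without hormone and acinar genes, no filter, a filter of 5 CPM in 4 libraries, each library left out, DESeq2 (version 1.42.0), limma-voom with quality weights (limma version 3.58.1), a fit that was not robust, unrounded counts, and hormone or acinar covariates.

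Exon lengths and gene coordinates came from GENCODE M21 (GRCm38), and promoter sequences from RefSeq, which matched 25 of the 35 genes. Every pair of the 8 libraries differed by more than sampling noise (chi-square over degrees of freedom of at least 38.4). The 35 genes and the lists were chosen with earlier results of these data known. All 35 genes are named by rule, with per-library values for the tested ones; of the wider endocrine set, those among the 12 with the highest mean CPM are named, except some that are not reported here; Prox1, Pax4 and Pou3f4 were named after their values were seen. The sums without Rgs5 or Insm1 and the Chgb mean without 1 library were chosen after seeing the data.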

Additional observations from a re-analysis of the deposited data

Results flagged for a closer look

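In 19 of the 70 groups of 4 libraries (35 genes, both diets), the highest library stood apart, the share of the range taken by its gap to the next library being above Dixon's critical value. Among the 70 were 5 chow and 3 HFD groups at 0 in all 4 libraries, which could not be flagged. Chance alone flags about 1 in 20 groups of normally distributed values, counting both ends, and these levels with many zeros are not normally distributed. No lowest library stood apart in this way, and in 11 of the 19 the other 3 libraries were at or under 1 CPM. Chow replicate 2 was the library that stood apart in 7 cases, with Slc7a2 at 53.9 CPM, Gipr at 13.2 CPM, Neurod1 at 7.90 CPM, Scg5 at 7.28 CPM, Rfx6 at 2.94 CPM, Glp1r at 1.70 CPM and Irx2 at 0.464 CPM. Chow replicate 3 stood apart for Ero1lb at 241 CPM, Ptprn at 2.88 CPM and Insm1 at 1.64 CPM, and chow replicate 1 for the glucose transporter gene Slc2a2 at 14.9 CPM.

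Among the HFD libraries, replicate 8 stood apart for Insm1 at 46.8 CPM and Isl1 at 1.99 CPM. Replicate 6 stood apart for Pax6 at 10.3 CPM, Rfx6 at 5.34 CPM and Rbp4 at 3.44 CPM. Replicate 7 had Cpe at 62.5 CPM and Kcnj11 at 0.627 CPM, and replicate 5 had Abcc8 at 19.1 CPM. Neither G6pc2, Pcsk2 nor Peg3 had such a library in either diet.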

How the results depend on the processing

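No paired analysis was possible because the replicate numbers of the diets, 1 to 4 and 5 to 8, are not shared. The count of 0 genes called became 45 with no filter, 28 with DESeq2 and 1 with limma-voom, and lay between 0 and 11 when 1 library was left out, the 11 without HFD replicate 8. For the 35 genes the count of 0 called became 1, G6pc2, with DESeq2. Of the 19 tested genes, 14 kept their direction under every alternative in which they were tested, among them G6pc2, with log2 fold changes of 2.91 to 3.97, Pcsk2 (1.79 to 2.52) and Peg3 (0.63 to 1.16). In 5 it turned. With limma-voom Ptprn2 had a log2 fold change of 1.45 and Sytl4 one of 0.72. With 1 library left out, the log2 fold changes lay between -1.40 and 1.26 for Ptprn2 and between -1.07 and 1.09 for Sytl4, turning without chow replicate 3. They lay between -0.90 and 0.37 for Slc30a8, turning without chow replicate 4, and between -2.31 and 0.047 for Pax6 and -0.74 and 2.23 for Pcsk1, turning without HFD replicate 5. The cause was not tested. The 16 genes below the filter were not tested, and with no filter 34 of the 35 were, none of them called. Of these, 9 had an unadjusted p under 0.05, as did 11.6% of all genes tested there, among them Gipr, Insm1, Pdx1, Rbp4 and Syt7. Syt7 also passed the filter, with an unadjusted p under 0.05, without HFD replicate 5 and without HFD replicate 7. Each of these libraries had 0 Syt7 counts, so leaving it out raised the HFD mean. The filter also passed more genes in those fits, 10771 and 10745 against 10129. At this depth a count of 0 in 1 library could hide a level of at most 0.464 to 0.702 CPM.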
